A study of Mus musculus with 4 samples.

Results

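The G1 cyclins and the inhibitors of their kinases were described in c-Myc-driven liver tumours of mice, through 10 genes of the 55487 in the deposited table. They were chosen by symbol and family: the D cyclins Ccnd1, Ccnd2 and Ccnd3, the E cyclins Ccne1 and Ccne2, the CIP/KIP inhibitors Cdkn1a and Cdkn1b, and the INK4 inhibitors Cdkn2a, Cdkn2b and Cdkn2c. All 10 were found under 1 Ensembl identifier each, and all 10 passed the filter on low counts. Messenger RNA came from bulk hepatocellular carcinoma of Alb-cre H11-myc mice, in which Cre is driven by the albumin promoter of hepatocytes and a Myc transgene sits at the H11 locus. The labels give 2 mice as wild type and 2 as carrying a liver deletion of Tfrc, the transferrin receptor that imports iron. Alleles of the wild type mice, deleted exons, ages and sexes are not given in the labels.

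D cyclins bind CDK4 and CDK6, and E cyclins bind CDK2. These kinases phosphorylate the retinoblastoma protein, which frees E2F factors to switch on genes for DNA synthesis. INK4 proteins block CDK4 and CDK6, while CIP/KIP proteins bind cyclin and kinase together and hold back CDK2. In adult liver most hepatocytes rest outside the cycle, and cyclin D1 is the cyclin best known for bringing them back into it after injury. Much of the control of p27, the Cdkn1b product, and of the cyclins acts on the protein, which RNA does not show.

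Total counts ran from 15918349 to 17052943 per library. Unless FPKM is named, levels are in CPM after TMM scaling for library size. Wild type replicate 2 stood apart on the first principal component (48.2% of the variance), at 86.6 against -38.5 to -11.2 in the other libraries. Wild type replicate 1 stood apart on the second (32.6%), at -66.7 against 3.11 to 49.1. For the 10 genes, differences are also given without wild type replicate 2. The share of counts from mitochondrial genes was 8.69% and 4.13% in wild type and 9.8% and 16.6% in knockout, so it too separated the groups. Tfrc had 460 and 234 CPM in wild type replicates 1 and 2, and 334 and 205 CPM in the libraries labelled knockout. Its count covers the whole gene in mixed tissue, so it does not check the labels, and "knockout" below means the libraries labelled so. Hepatocyte markers were present in every library, with 10 summed genes at 13300 and 47000 CPM in wild type and 36100 and 32500 CPM in knockout.

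Cdkn1a, which encodes the p21 inhibitor induced by p53, was 2.19-fold lower in knockout, and Cdkn1b was 1.61-fold higher, with no overlap of the groups in either gene. Ccnd1 and Ccne1 were 1.59-fold and 1.54-fold lower in the mean, also without overlap, while Ccnd2, Ccnd3, Ccne2, Cdkn2a and Cdkn2b overlapped between the groups. No gene of the 10 passed edgeR's adjusted threshold, which called 0% of the 16310 genes tested. Only Cdkn1a had an unadjusted edgeR p under 0.05, as did 8.3% of all tested genes. DESeq2 and limma-voom also called 0 of the 10, against 0.997% and 0.00613% of all genes. Both knockout libraries lay below both wild type libraries in 4 of the 10 genes, against 20.1% of all tested genes, and above them in 1 of the 10, against 21.9%. The median log2 fold change of the 10 was -0.25, against 0.01 over all tested genes.

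**Figure D1:**
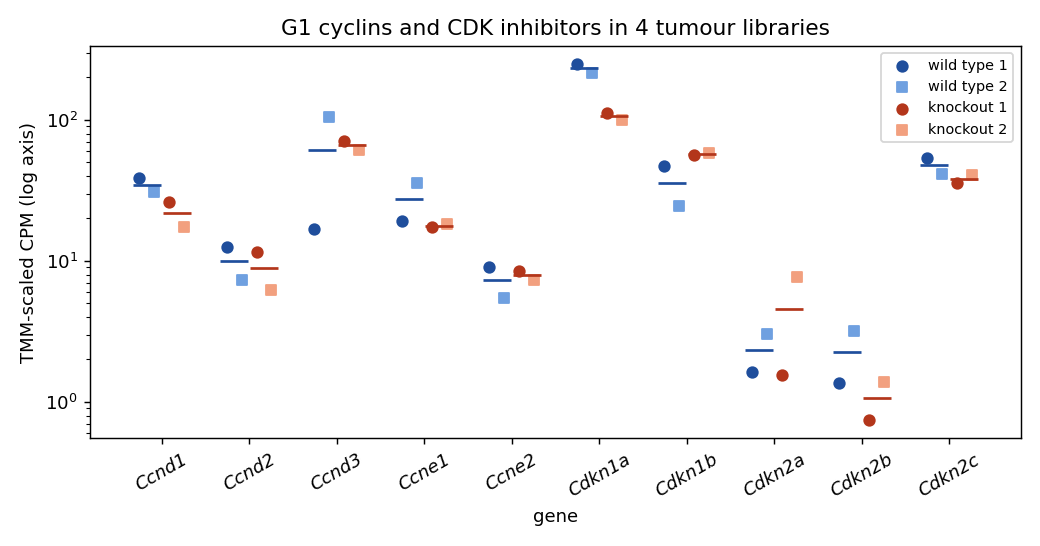
TMM-scaled CPM (log axis) of the 10 genes, with 1 point per library and a bar at each group mean. Cdkn1a sits highest, with wild type at 216 and 250 CPM and knockout at 100 and 112 CPM, and Ccnd3 shows the widest gap inside a group, 16.9 against 105 CPM in wild type.

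Cdkn1a was the most abundant of the 10 by the deposited FPKM, with a mean of 25.9 FPKM over the 4 libraries (range 14.7 to 42.4). Cdkn2c followed at 15.3 FPKM (12.8 to 21.3), so the ranges overlapped, though Cdkn1a was the higher in each of the 4 libraries. Cdkn1b, Ccne1, Ccnd1 and Ccnd3 came next at means of 6.22, 5.93, 5.11 and 3.78 FPKM, and each overlapped its neighbours. The order among these depends on the group, since Cdkn1b averaged 4.92 FPKM in wild type, below Ccne1 (7.16) and Ccnd1 (6.34), and 7.52 FPKM in knockout, above both (4.7 and 3.89). All 4 libraries had less Cdkn1b than Cdkn2c, since the highest Cdkn1b level was 7.6 FPKM. Cdkn2a, Cdkn2b, Ccne2 and Ccnd2 were the scarcest, at means of 2.4, 1.17, 0.988 and 0.777 FPKM, again with overlapping ranges. The lengths behind these FPKM values exceeded the union of annotated exons for 9 of the 10 genes, for example 7784 against 3495 bases for Ccne2 and 16274 against 8775 for Ccnd3. Per kilobase of exon union Ccnd3 stood above Ccnd1 and Ccne2 above Cdkn2b, and the ranges of Cdkn1a (28.2 to 70.4) and Cdkn2c (13.3 to 20.1) did not overlap.

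Ccnd1 (ENSMUSG00000070348, chromosome 7, 144929931 to 144939925, minus strand, mm10) encodes cyclin D1. It had 38.6 and 30.9 CPM in wild type replicates 1 and 2, and 26.3 and 17.3 CPM in knockout replicates 1 and 2. Knockout was lower in both libraries and the groups did not overlap. On the log2 scale knockout minus wild type was -0.67 (SE 0.35, 95% interval -1.5 to 0.16, edgeR adjusted p = 0.636), and leaving out wild type replicate 2 gave -0.82. It was -0.4 without knockout replicate 2 and -1.02 without knockout replicate 1. The opposite-strand gene LTO1 shares 1100 exon bases with it and had 66 to 104 counts per library, against 275 to 708 for Ccnd1.

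Ccnd2 (ENSMUSG00000000184, chromosome 6, 127125162 to 127152193), a D cyclin common in lymphocytes and other non-hepatocyte cells, had 12.6 and 7.34 CPM in wild type and 11.5 and 6.18 CPM in knockout. The groups overlapped, and in each group replicate 1 was the higher. Its log2 fold change was -0.18 (95% interval -1.32 to 0.96, edgeR adjusted p = 0.93). The sign turned when wild type replicate 1 (0.24) or knockout replicate 2 (0.2) was left out, and leaving out wild type replicate 2 gave -0.52. The T and NK cell marker list summed to 25.9 and 10.5 CPM in wild type and 22.1 and 17.8 CPM in knockout. It too was higher in replicate 1 of each group, but this was not particular to immune cells. The RB family and E2F genes described below, as a sum, were also so (471 and 317, then 462 and 434 CPM). Not all lists were. B and plasma cell markers (9.26 and 7.47, then 8.82 and 12.4 CPM) were higher in replicate 1 in wild type only, as were fibroblast and stellate markers. Macrophage and Kupffer cell markers (704 and 1050, then 393 and 261 CPM) were so in knockout only. The part of these lists in the Ccnd2 level was not tested.

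Ccnd3 (ENSMUSG00000034165, chromosome 17, 47505051 to 47599691) encodes cyclin D3. It had 16.9 CPM in wild type replicate 1 and 105 CPM in wild type replicate 2, a 6.25-fold gap within the group, while the knockout libraries had 71.4 and 61.2 CPM. Knockout therefore lay between the wild type mice. Between the groups its log2 fold change was 0.12 (95% interval -1.6 to 1.83, edgeR adjusted p = 0.971). This became 1.97 (edgeR adjusted p = 0.0553) when wild type replicate 2 was left out, -0.69 when wild type replicate 1 was, and -0.02 when knockout replicate 1 was. The neighbouring gene Bysl shares 361 exon bases on the opposite strand. It had 966, 1103, 807 and 721 counts in wild type 1, wild type 2, knockout 1 and knockout 2, with no such dip in wild type replicate 1. In the same order hepatocyte markers summed to 13300, 47000, 36100 and 32500 CPM, also lowest in wild type replicate 1 and highest in wild type replicate 2. Cholangiocyte markers were lowest there too (415, 979, 1070 and 1130 CPM), but macrophage and Kupffer cell markers were not (704, 1050, 393 and 261 CPM). The part of these lists in the Ccnd3 level was not tested.

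RefSeq gives Ccnd3 a distal and a proximal start, 88416 bases apart, and the deposited count joins the transcripts of both. The bases before them are shown so that the separate start regions behind a single count can be seen (GRCm38.p6, plus strand, cut where a GENCODE exon of the gene begins, GC boxes GGGCGG or CCGCCC in capitals). The distal stretch is chr17:47504801-47505050 and the proximal chr17:47593217-47593435.
Ccnd3 distal: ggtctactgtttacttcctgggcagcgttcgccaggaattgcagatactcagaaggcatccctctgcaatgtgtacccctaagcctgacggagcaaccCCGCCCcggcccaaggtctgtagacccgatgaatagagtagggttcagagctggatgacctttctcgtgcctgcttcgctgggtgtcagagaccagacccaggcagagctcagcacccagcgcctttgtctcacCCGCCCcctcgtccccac
Ccnd3 proximal: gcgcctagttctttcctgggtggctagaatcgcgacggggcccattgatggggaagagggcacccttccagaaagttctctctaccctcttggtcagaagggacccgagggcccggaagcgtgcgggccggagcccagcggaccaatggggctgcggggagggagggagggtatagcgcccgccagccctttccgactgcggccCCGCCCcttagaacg

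Shares within the D cyclins show the same library standing out. By deposited FPKM, Ccnd1 made up 76.9% of the summed D cyclins in wild type replicate 1, and 43.8% in wild type replicate 2. In knockout it made up 46.9% and 42%. Ccnd3 took 11.6% in wild type replicate 1 and 51.5% in wild type replicate 2, against 43.8% and 51.2% in knockout. Ccnd2 stayed the smallest share throughout, from 4.72% to 11.4%. Wild type replicate 1 was thus the library in which cyclin D1 RNA predominated, and wild type replicate 2 resembled the knockout libraries in this split. Counted per kilobase of exon union, Ccnd1 took 71.5% and 33.9% in wild type and 37.4% and 32.5% in knockout, so Ccnd3 was then the larger in 3 of the 4 libraries.

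**Figure D2:**
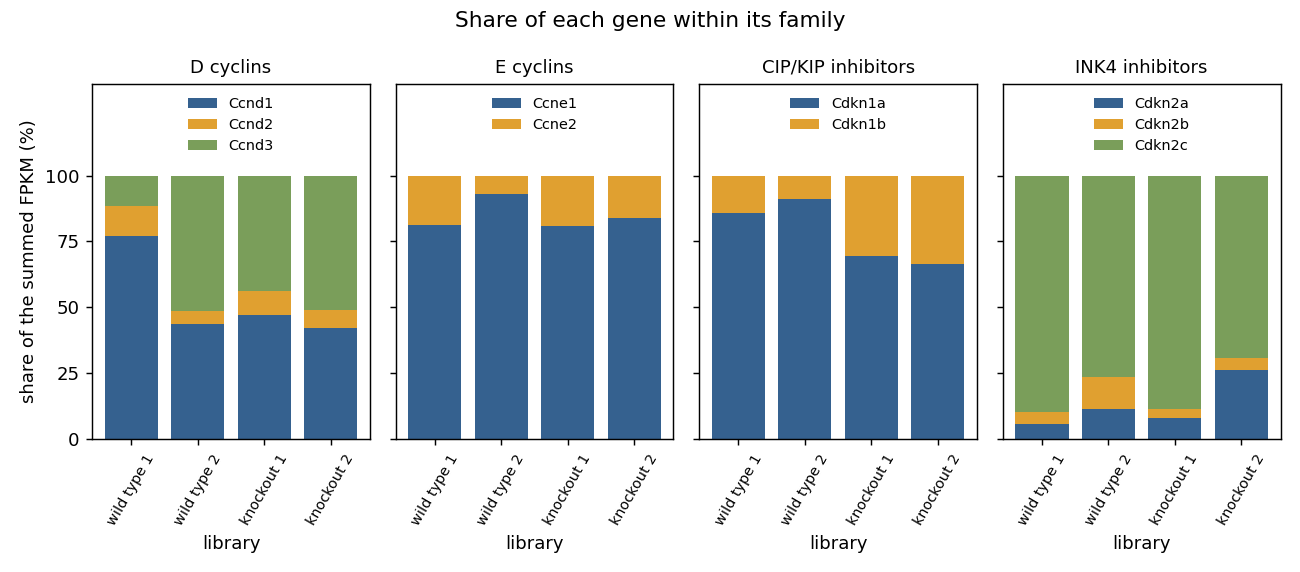
Share of the summed FPKM (%) taken by each gene within its family, with 1 bar per library. Among the CIP/KIP genes Cdkn1b takes 14.1% and 8.98% in wild type and 30.5% and 33.7% in knockout, and among the D cyclins wild type replicate 1 stands apart with 76.9% Ccnd1.

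Ccne1 (ENSMUSG00000002068, chromosome 7, 38097984 to 38107534) encodes cyclin E1, the partner of CDK2 at S phase entry. It had 19.2 and 35.8 CPM in wild type and 17.3 and 18.3 CPM in knockout. The groups did not overlap, but wild type replicate 1 was close to knockout, and wild type replicate 2 alone was high. The estimated difference was -0.63 on the log2 scale (SE 0.4, 95% interval -1.57 to 0.31, edgeR adjusted p = 0.676). It shrank to -0.11 when wild type replicate 2 was left out, and was -1.03 when wild type replicate 1 was.

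Ccne2 (ENSMUSG00000028212, chromosome 4, 11191351 to 11204779), the second E cyclin, had 9.09 and 5.46 CPM in wild type and 8.45 and 7.32 CPM in knockout. Both knockout libraries lay between the wild type mice. The estimated difference was 0.11 on the log2 scale (95% interval -0.92 to 1.15, edgeR adjusted p = 0.954). Leaving out wild type replicate 2 gave -0.21, and leaving out knockout replicate 1 gave -0.01. Ints8, a subunit of the Integrator complex on the opposite strand, shares 609 exon bases with Ccne2. Ints8 had 548, 284, 505 and 438 counts in wild type 1, wild type 2, knockout 1 and knockout 2, against 167, 84, 137 and 116 for Ccne2. The ratio of Ccne2 to Ints8 counts held between 0.265 and 0.305, so the rows moved together over the libraries. Whether reads of one were counted for the other was not tested. By FPKM, Ccne1 was the larger E cyclin in all 4 libraries, with 81.4% and 93.1% of the sum in wild type and 81% and 83.8% in knockout.

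Among the inhibitors, Cdkn1a (ENSMUSG00000023067, chromosome 17, 29090976 to 29100727) showed the clearest separation of the groups. It had 250 and 216 CPM in wild type replicates 1 and 2, and 112 and 100 CPM in knockout replicates 1 and 2. Wild type averaged 233 ± 24.3 CPM and knockout 106 ± 8.43 CPM (SD, n = 2 each), so the gap between groups exceeded the spread within either. This gave a difference of -1.13 on the log2 scale (SE 0.31, 95% interval -1.86 to -0.41), with an unadjusted p of 0.00774 and an adjusted p of 0.545 by edgeR. By unadjusted p, 1.39% of tested genes ranked before it. DESeq2 gave an adjusted p of 0.0639. Over the 11 alternative settings the value ran from -1.24 to -1.05, and leaving out wild type replicate 2 gave -1.24. The opposite-strand transcript AC167363.2 shares 273 exon bases but had only 12 to 42 counts, against 1589 to 4592 for Cdkn1a.

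RefSeq gives Cdkn1a a distal and a proximal start, 2790 bases apart, which the count does not separate. The bases before each are shown because Cdkn1a is the best-known target of p53, whose DNA element can hold paired CATG cores 6 bases apart. The distal stretch is chr17:29090729-29090975 and the proximal chr17:29093519-29093768 (GRCm38.p6, plus strand). Capitals mark such a pair, an E-box CACGTG, an E2F motif (TTTCCCGC, TTTCGCGC, TTTGGCGC or TTTGCCGC) or a GC box, on either strand.
Cdkn1a distal: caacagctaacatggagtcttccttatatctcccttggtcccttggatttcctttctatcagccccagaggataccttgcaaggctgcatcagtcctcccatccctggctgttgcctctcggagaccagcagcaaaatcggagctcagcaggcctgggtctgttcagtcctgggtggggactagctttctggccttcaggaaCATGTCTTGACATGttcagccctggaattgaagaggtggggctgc
Cdkn1a proximal: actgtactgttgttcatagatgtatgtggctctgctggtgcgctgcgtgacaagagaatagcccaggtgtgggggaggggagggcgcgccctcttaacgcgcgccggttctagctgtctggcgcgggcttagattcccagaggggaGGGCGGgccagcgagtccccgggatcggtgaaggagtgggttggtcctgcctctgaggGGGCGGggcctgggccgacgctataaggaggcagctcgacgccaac
The paired cores CATGTCTTGACATG begin 48 bases before the distal start, and 0.49% of the 32851 promoter windows of 250 bases hold such a pair. Other spellings of the p53 cores were not searched, so this is not the share of windows with a p53 element. The proximal window holds 2 GC boxes, a motif found in 32.7% of windows. Of the 10 genes 7 had an entry, with 11 windows in all: Ccnd3, Ccne1, Cdkn1a, Cdkn1b, Cdkn2a, Cdkn2b and Cdkn2c. GC boxes lay in 7 of the 11 windows, the E2F motif in 1 and the paired cores in 1. CACGTG, the E-box that MYC and MAX bind, matched 0 of 11 (6.02% of all windows). At that share, 0 of 11 windows does not set these genes apart. Ccnd1, Ccnd2 and Ccne2 had no window, and bases further from the starts were not searched.

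Cdkn1b (ENSMUSG00000003031, chromosome 6, 134920401 to 134925513) encodes p27, an inhibitor of resting cells. It had 47 and 24.4 CPM in wild type and 56.6 and 58.4 CPM in knockout. Knockout was higher in both libraries, and the knockout mice differed far less from each other (1.03-fold) than the wild type mice did (1.92-fold). Its log2 difference was 0.69 (SE 0.38, 95% interval -0.21 to 1.58, edgeR adjusted p = 0.644). Leaving out wild type replicate 2 brought this to 0.29, and leaving out wild type replicate 1 to 1.21 (edgeR adjusted p = 0.0742). The stretch before its RefSeq start, chr6:134920151-134920400 (plus strand), is given for comparison with Cdkn1a, with capitals as above.
Cdkn1b: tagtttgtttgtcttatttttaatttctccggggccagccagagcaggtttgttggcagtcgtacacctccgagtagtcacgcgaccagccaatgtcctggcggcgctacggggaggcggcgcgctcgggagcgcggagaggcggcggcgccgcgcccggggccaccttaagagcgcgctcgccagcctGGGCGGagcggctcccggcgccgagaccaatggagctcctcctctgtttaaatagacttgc

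The balance of the CIP/KIP pair did not overlap between the groups. Counts of Cdkn1a were 5.32 and 8.83 times those of Cdkn1b in wild type, and 1.98 and 1.72 times in knockout, a ratio that does not depend on how libraries are scaled. By FPKM, Cdkn1b made up 14.1% and 8.98% of the pair in wild type and 30.5% and 33.7% in knockout. Cdkn1a remained the larger of the pair in all 4 libraries. This ratio was picked after the values were seen and was not tested.

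Cdkn2c (ENSMUSG00000028551, chromosome 4, 109660876 to 109667189) encodes p18, and it was by far the most abundant of the INK4 genes described. It had 53.9 and 41.1 CPM in wild type and 35.7 and 40.9 CPM in knockout. Although the groups did not overlap, wild type replicate 2 and knockout replicate 2 were nearly equal. Its log2 difference was -0.31 (95% interval -1.03 to 0.41, edgeR adjusted p = 0.785), or -0.49 with wild type replicate 2 left out. By FPKM it made up 89.9% and 76.5% of the INK4 sum in wild type, and 88.6% and 69.3% in knockout.

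Cdkn2a (ENSMUSG00000044303, chromosome 4, 89274471 to 89294653), which encodes p16 and the p53 activator ARF from separate first exons, was scarce. Wild type had 30 and 47 counts and knockout 25 and 121, or 1.63, 3.05, 1.54 and 7.63 CPM. Knockout replicate 2 alone was high, with an exact 95% Poisson interval of 100.4 to 144.6 counts that lay clear of the 16.2 to 36.9 of knockout replicate 1. Between the groups the log2 difference was 0.97 (95% interval -0.95 to 2.89, edgeR adjusted p = 0.749). It turned to -0.6 with knockout replicate 2 left out and was 1.48 with wild type replicate 2 left out. The start regions of its transcripts, 12427 bases apart, are printed because the count joins ARF (distal) and p16 (proximal). They are chr4:89294654-89294869 and chr4:89282193-89282442 (GRCm38.p6, minus strand), the distal stretch cut where a GENCODE exon begins and capitals as above.
Cdkn2a distal: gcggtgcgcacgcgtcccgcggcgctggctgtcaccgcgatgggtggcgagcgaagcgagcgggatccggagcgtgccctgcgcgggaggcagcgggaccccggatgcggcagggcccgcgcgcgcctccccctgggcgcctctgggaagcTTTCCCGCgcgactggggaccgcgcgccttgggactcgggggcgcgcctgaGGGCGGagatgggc
Cdkn2a proximal: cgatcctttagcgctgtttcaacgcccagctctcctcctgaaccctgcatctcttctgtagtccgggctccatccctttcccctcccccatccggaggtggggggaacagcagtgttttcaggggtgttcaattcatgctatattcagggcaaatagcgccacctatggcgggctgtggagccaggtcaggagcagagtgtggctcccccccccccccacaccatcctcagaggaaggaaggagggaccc
The E2F motif TTTCCCGC begins 99 bases before the distal start, and 1.86% of all windows hold an E2F motif. The proximal window has no match to any motif searched.

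Cdkn2b (ENSMUSG00000073802, chromosome 4, 89306299 to 89311039), which encodes the TGF-beta-induced inhibitor p15, was counted 25 and 49 times in wild type, against 12 and 22 times in knockout. In CPM these were 1.36 and 3.18 against 0.74 and 1.39. Wild type replicate 1 and knockout replicate 2 were nearly equal, and their Poisson intervals (16.2 to 36.9 and 13.8 to 33.3 counts) overlapped. The log2 difference was -1.09 (SE 0.71, 95% interval -2.76 to 0.59, edgeR adjusted p = 0.685), or -0.35 with wild type replicate 2 left out.

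**Figure D3:**
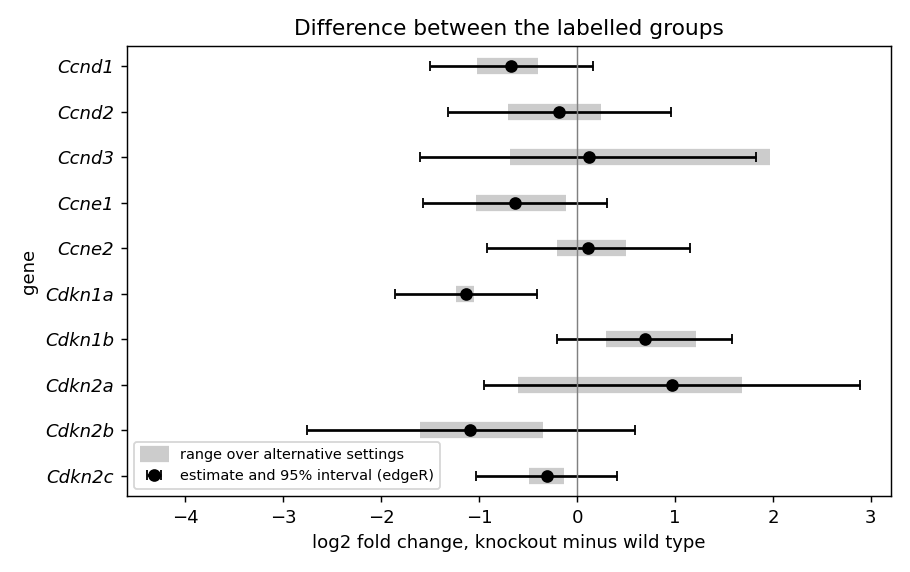
Log2 fold change, knockout minus wild type, of the 10 genes: points and lines are the edgeR estimate with its 95% interval, and grey bars span the alternative settings. Only Cdkn1a has an interval that leaves out 0 (-1.86 to -0.41), and the grey bars of Ccnd2, Ccnd3, Ccne2 and Cdkn2a cross 0.

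Markers of some other cell types moved with the labelled groups, and in bulk tissue fewer cells of a type cannot be told apart from less RNA per cell. In the macrophage and Kupffer cell list 0 of 10 markers had a positive log2 fold change, with sums of 704 and 1050 CPM in wild type and 393 and 261 CPM in knockout. In the neutrophil list it was 0 of 6 tested, with sums of 25.2 and 67.4 against 14 and 14.8 CPM, and Ly6g was at 0 in every library. The Kupffer marker Clec4f had 0 counts in wild type replicate 1, Timd4 had 0 in knockout replicate 1, and the neutrophil marker Retnlg had 0 in knockout replicate 2. The erythroid list had 0 of 5 tested, with sums of 957 and 2170 against 212 and 150 CPM. Endothelial markers had 2 of 8 positive (137 and 156 against 100 and 83.1 CPM), and fibroblast and stellate markers 1 of 9 (1470 and 1230 against 648 and 1160 CPM). The part of these lists, and of the mitochondrial share given above, in the Cdkn1a, Cdkn1b, Ccnd1 and Ccne1 differences was not tested. B and plasma cell markers (9.26 and 7.47 against 8.82 and 12.4 CPM) and cholangiocyte markers (415 and 979 against 1070 and 1130 CPM) overlapped between the groups. In T and NK markers 7 of 9 tested were positive, and hepatocyte markers had 7 of 10, but the sums of both overlapped between the groups. They were 25.9 and 10.5 against 22.1 and 17.8 CPM, and 13300 and 47000 against 36100 and 32500 CPM.

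Other genes of the G1 machinery were mostly without a call. Of 96 pathway genes 95 were tested, with estimates above 0 in 42 and below 0 in 53, and 0 passed edgeR's adjusted threshold. Their median was -0.05. An unadjusted edgeR p under 0.05 was found for 7 of the 95, against 8.3% of all tested genes, limma-voom called 0, and DESeq2 called 1, Mcm6. The groups separated with knockout higher in 21 and lower in 20 of the 95, near the 21.9% and 20.1% of all genes.

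Other CDK inhibitors were negative in 5 of 5, with a median of -0.2, where 50.4% of all tested genes were positive. Some estimates were close to 0, such as Cdk2ap1 at -0.04, which overlapped between the groups. Cdkn2d, the p19 INK4 gene, had 10.6 and 12.9 CPM in wild type and 6.72 and 8.07 CPM in knockout (log2 fold change -0.67). Cdkn3, a phosphatase that acts on CDKs, and the imprinted CIP/KIP gene Cdkn1c had log2 fold changes of -0.33 and -0.17, and Cdkn3 was at 0.06 without wild type replicate 2. Among kinases and their activators 3 of 8 were positive (median -0.16). Cdk2 had 14.4 and 14.7 CPM in wild type and 19.7 and 28.8 CPM in knockout (0.74, or 0.44 without knockout replicate 2), without overlap. Cdc37, the kinase co-chaperone, was at -0.82 but -0.18 without wild type replicate 2, and Mnat1, part of the CDK-activating kinase, at -0.6 (-0.36 without knockout replicate 2).

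Among the RB family and E2F genes 13 of 18 were positive, with a median of 0.19. Of the 18, 8 lay higher in knockout without overlap against 0 lower, where 21.9% and 20.1% of all tested genes did. In some of the 8 only wild type replicate 2 was far below knockout. These include Rbl2 (16.8 and 7.73 against 18 and 18.8 CPM), E2f5 (13.7 and 9.1 against 13.9 and 14.9) and Lin52 (5.06 and 2.47 against 5.55 and 8.2). In Rb1 and Lin54 (12.2 and 9.23 against 17.3 and 19.3 CPM) both wild type libraries lay clearly lower. Rb1, the retinoblastoma gene, had 10.6 and 10.1 CPM in wild type and 18.1 and 18.4 CPM in knockout. Its log2 difference was 0.82 (SE 0.34, edgeR unadjusted p = 0.0481, adjusted p = 0.598). Lin54, a DNA-binding subunit of the DREAM complex, was at 0.77 and the repressor E2f8 at 0.67, or 0.37 without wild type replicate 2. Of genes that turn over G1 cyclins and CDK inhibitors 5 of 18 tested were positive (median -0.26). The CRL4 substrate receptor Dtl was at -1.2, with -2.61 when knockout replicate 1 and -0.51 when knockout replicate 2 was left out. The kinase Gsk3b was at 0.78 (1.5 when wild type replicate 1 was left out, 0.3 when replicate 2 was), and the F-box gene Fbxo31 at 0.62 (0.27 and 1.06 for the same omissions). Skp2, which directs p27 to degradation, was left untested at 0.123 to 0.218 CPM, near the floor of 3 counts.

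Upstream regulators had 15 of 26 positive (median 0.08). Trp53 had 43 and 42.8 CPM in wild type and 56.8 and 74.4 CPM in knockout (log2 fold change 0.61, edgeR adjusted p = 0.631). Mdm2, another p53 target, had 27.9 and 25.9 against 41.1 and 46.5 CPM (0.7, adjusted p = 0.6), so its estimate was of the opposite sign to that of Cdkn1a. Tgfb1, the ligand known to induce Cdkn2b, had 33.8 and 37.9 against 20 and 18.1 CPM (-0.91, edgeR adjusted p = 0.548). Myc as counted had 79.5 and 59.9 CPM in wild type and 86.4 and 53.7 CPM in knockout, and no source used here says whether transgene reads were included.

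Genes of S phase and mitosis, downstream of the G1 kinases, had 6 of 20 positive (median -0.07). In this list 6 of 20 lay lower in knockout without overlap and 1 higher, where 20.1% and 21.9% of all tested genes did. Of the 6 MCM helicase genes, a subset picked after the values were seen, Mcm6, Mcm3, Mcm2 and Mcm7 were among those lower without overlap. Mcm4 (-0.16) and Mcm5 (-0.29) overlapped between the groups. Mcm6 had 222 and 243 CPM in wild type and 102 and 91 CPM in knockout, a log2 difference of -1.26 (SE 0.3, edgeR adjusted p = 0.545, DESeq2 adjusted p = 0.0257). Mcm3 and Mcm2 were at -1.04 and -0.84 (-0.68 and -0.6 when knockout replicate 2 was left out), and Mcm7 at -0.79. The proliferation markers Mki67, Top2a and Cdk1 overlapped between groups, with log2 fold changes of 0.16, 0.02 and -0.07. Others of the list did not overlap, with Aurkb higher in knockout (0.37) and Cenpa (-0.21) and Tyms (-0.28) lower.

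Over the 4 libraries, the pathway gene with the profile nearest to Cdkn1a was Mcm6 (Euclidean distance 0.28 in log2 CPM), and the nearest to Ccnd1 was Mcm2 (0.28). Cdkn1b lay nearest to E2f3 (0.09), Cdkn2c to Cdc25a (0.15), Ccne2 to Smad4 (0.1), Ccnd2 to E2f1 (0.24), Ccne1 to Fbxo4 (0.44) and Cdkn2b to Cryab (0.61). Cdkn2a and Ccnd3 had no near neighbour among the pathway genes, with their closest at 1.16 (Ctnnb1) and 1.33 (Fbxo31). Cell type markers were not part of this search. Among the 10 genes themselves, Cdkn1a and Ccnd1 were each other's nearest (0.54), as were Ccne2 and Cdkn2c (0.59) and Ccne1 and Cdkn2b (0.68). These distances rest on 4 libraries and are a description.

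**Figure D4:**
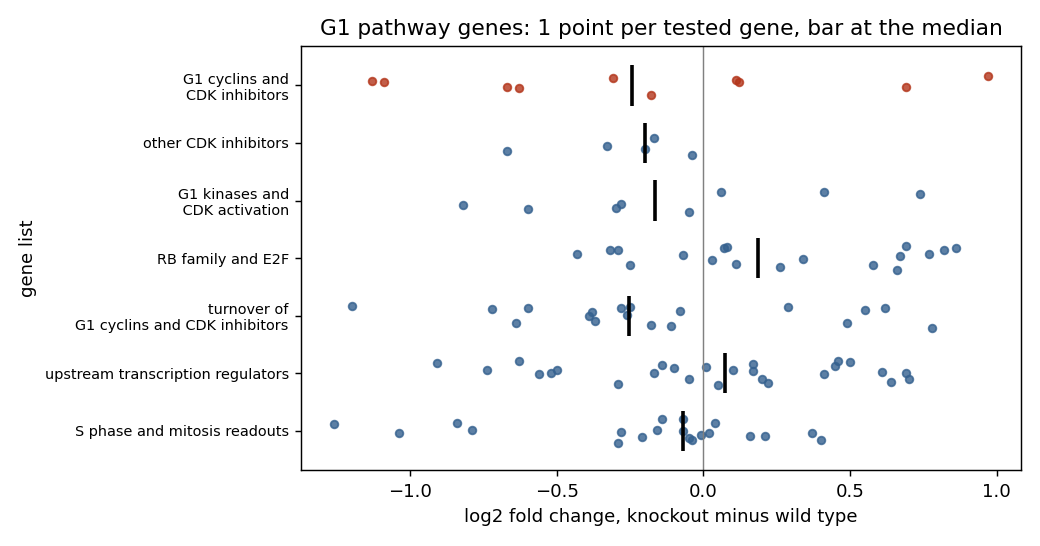
Log2 fold change, knockout minus wild type, of each tested gene in the 10 described and in 6 pathway lists, with a black bar at each median. Medians run from -0.26 for the turnover genes to 0.19 for the RB family and E2F genes, against -0.25 for the 10 genes, and points lie on both sides of 0 in each list but that of the other CDK inhibitors.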

How the data were processed

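Bulk liver tumour RNA of 4 mice was measured, with 2 libraries labelled wild type and 2 labelled Tfrc knockout. The authors deposited raw counts and FPKM for 55487 Ensembl genes. HISAT2, SAMtools 1.3.1, StringTie, edgeR and the mm10 build are named in no stated role, per the submitters' processing notes, and no source used here gives the strand setting. The deposited FPKM matched, within 1%, the count over library total and a per-gene length for 100% of genes with at least 10 counts. That length exceeded the union of GENCODE M21 exons for 9 of the 10 genes described, so levels between genes are also given per kilobase of that union, a choice made after seeing the data.

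The filterByExpr function of edgeR kept 16310 genes. After TMM scaling, edgeR's quasi-likelihood test (version 4.0.16 in R 4.3.3) was run two-sided, and Benjamini-Hochberg adjusted p-values under 0.05 over the whole table were called. Standard errors and 95% intervals come from the F statistic. With 2 against 2 libraries the smallest exact permutation p is 0.333, so no such test was used. Means and SDs use TMM-scaled CPM. Total counts of 15918349 to 17052943 put a floor of 3 counts at 0.176 to 0.188 CPM. Intervals on counts cover counting error only, since the labels name no molecular identifiers. The test was tried on simulated counts with known changes before use.

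Alternatives changed the scaling (DESeq2's size factors or library totals), the filter (none, or 5 CPM on average), the test (DESeq2 1.42.0 or limma-voom, limma 3.58.1) or the model (a replicate block), or left out each library in turn, where the lone library of a group was taken to vary like the other group. The genes described and the pathway and marker lists were chosen with earlier results of these data known, so no list was tested. Of each pathway list the 3 tested genes with the smallest unadjusted p are named. Likeness between genes was the Euclidean distance of centred log2 CPM (prior count 2) over the 4 libraries. Promoter windows are the 250 bases before RefSeq starts on GRCm38.p6, the same assembly as mm10. Chosen after values were seen are the ratios of Cdkn1a to Cdkn1b and of Ccne2 to Ints8, and the pair of p53 cores. So are the genes Skp2, Mcm4, Mcm5, Mcm7, Mki67, Top2a, Cdk1, Aurkb, Cenpa, Tyms, Cdk2ap1, Rbl2, E2f5, Lin52 and Myc.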

Additional observations from a re-analysis of the deposited data

How the results depend on the processing

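The count of 0 called among the 10 genes, in either direction, was also 0 under all 11 alternatives. Over all genes, DESeq2 called 65 higher and 85 lower, the replicate block 2 and 2, and library totals and limma-voom 1 lower each. Leaving out 1 library gave 0 to 118 higher and 0 to 104 lower. The highest counts came without wild type replicate 1, and leaving out wild type replicate 2 gave 20 higher and 34 lower, knockout replicate 2 1 and 1, and knockout replicate 1 0 and 0. Among pathway genes DESeq2 called 1 lower.

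The sign of a log2 fold change turned only when libraries were left out, for Ccnd2 (range -0.71 to 0.24, with 0.2 without knockout replicate 2), Ccnd3 (-0.69 to 1.97, with -0.02), Ccne2 (-0.21 to 0.5, with -0.01), Cdkn2a (-0.6 to 1.68) and Cdkn3 (-0.72 to 0.06). The cause was not tested. The other 6 of the 10 genes kept their sign throughout, with Ccnd1 from -1.02 to -0.4, Cdkn2b from -1.6 to -0.35 and Cdkn1b from 0.29 to 1.21. Cdkn2a and Cdkn2b gave no value at a mean of 5 CPM.

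With CPM in place of FPKM, the mean share of Ccnd1 among D cyclins in knockout moved from 44.5% to 22.3% and that of Ccnd3 from 47.5% to 68.8%, and with the exon union to 35% and 58%.

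Replicate numbers are shared between the groups, but nothing in the labels pairs the mice. Deviations of same-numbered libraries from their group means correlated at 0.121 across genes. The replicate block changed no call among the 10 genes, and moved Ccnd3 from 0.12 to 0.64.

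With 2 mice per group, 95% intervals spanned 1.45 log2 units at the narrowest of the 10 genes. Cdkn2a and Cdkn2b had the fewest counts, from 12 to 121.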
